A study of Arabidopsis thaliana with 18 samples.

Results

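The genes described here build the Casparian strip of the root: the membrane scaffold genes CASP1 (AT2G36100), CASP2 (AT3G11550), CASP4 (AT5G06200) and CASP5 (AT5G15290), the dirigent gene ESB1 (AT2G28670), the peroxidase gene PER64 (AT5G42180) and the regulator MYB36 (AT5G57620). They are listed by locus name and are 7 of the 27655 genes in the deposited table. The RNA-seq libraries held total RNA of whole Arabidopsis seedlings, 7 days old and kept under short days. The 6 groups of 3 libraries each were h3.3kd at 27 °C, h3.3kd at 21 °C, elf7-3 at 27 °C, elf7-3 at 21 °C, Col at 27 °C and Col at 21 °C. The line h3.3kd, given as h3.3kd-1 in the genotype label, has reduced histone variant H3.3. The mutant elf7-3 carries an allele of ELF7, which codes for part of the Paf1 complex bound to elongating RNA polymerase II, and Col is the wild type. The labels name no construct or number of lines for h3.3kd. The study asked how histone variant exchange takes part in the growth response of plants to moderate warmth.

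The Casparian strip is a belt of lignin in the walls between endodermal cells, the innermost layer of the root cortex. It seals the wall space, so that water and ions must cross a membrane before they reach the vascular tissue. CASP proteins gather in the endodermal plasma membrane where the strip will form and hold the lignin-making enzymes there. PER64 is a peroxidase that takes part in lignin polymerisation at that place, ESB1 is a dirigent-domain protein needed for an unbroken strip, and MYB36 is a transcription factor of the endodermis known to switch on CASP genes, PER64 and ESB1. The strip is a root structure, whereas these libraries came from whole seedlings.

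Promoters are shown for CASP5, which had the largest response to warmth in Col. Those of CASP1 and CASP4 are shown because they hold a short motif that the other members lack, and not for their responses. Each is the 250 bases before the annotated gene start in the RefSeq annotation of TAIR10.1, written 5′ to 3′ on the strand of the gene. They lie at chr5:4966761-4967010 on the plus strand for CASP5, chr2:15160800-15161049 on the minus strand for CASP1 and chr5:1876884-1877133 on the plus strand for CASP4. Capitals mark ACCAAC, a form of the AC element that R2R3 MYB proteins bind in lignin genes.
CASP5 promoter: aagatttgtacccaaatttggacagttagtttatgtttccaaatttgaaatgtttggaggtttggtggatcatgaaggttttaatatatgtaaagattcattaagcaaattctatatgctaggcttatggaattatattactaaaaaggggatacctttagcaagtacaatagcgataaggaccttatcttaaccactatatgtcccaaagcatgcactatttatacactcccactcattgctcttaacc
CASP1 promoter: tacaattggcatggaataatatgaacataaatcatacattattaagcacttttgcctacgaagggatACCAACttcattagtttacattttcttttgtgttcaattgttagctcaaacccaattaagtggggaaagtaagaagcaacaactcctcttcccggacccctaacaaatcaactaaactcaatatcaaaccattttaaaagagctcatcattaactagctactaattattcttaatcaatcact
CASP4 promoter: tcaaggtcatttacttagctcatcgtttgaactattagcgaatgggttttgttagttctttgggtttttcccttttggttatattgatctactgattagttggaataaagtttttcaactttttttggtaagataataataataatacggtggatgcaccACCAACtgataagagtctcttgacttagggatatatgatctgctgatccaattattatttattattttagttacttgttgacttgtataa
Both strands were searched for ACCAAC, for the AC element form ACCTAC and for the G-box CACGTG, the core site of many bHLH factors. None of these overlaps another in the windows shown. ACCAAC began 183 bases before the start of CASP1 and 90 bases before that of CASP4, and 11.5% of 27443 promoters of this length hold it on either strand. ACCTAC and CACGTG were not in any of the 7 windows, and they occur in 4.6% and 6.49% of the 27443 promoters. These are matches of letters in a window and say nothing on which factors bind.

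On TAIR10.1 the genes themselves lie at chr2:15159591-15160799 (CASP1, minus strand), chr3:3638178-3639348 (CASP2, plus), chr5:1877134-1878324 (CASP4, plus), chr5:4967011-4968092 (CASP5, plus), chr5:16852628-16854224 (PER64, plus) and chr5:23334767-23336632 (MYB36, plus). The CASP genes are related, which matters for telling their reads apart. Their coding sequences, between 564 bases in CASP5 and 621 bases in CASP1, were 61.3% to 80.6% identical in pairs. CASP2 and CASP4 were the closest pair, and their longest shared run was 20 bases, shown with nothing in capitals as no base in it is singled out.
CASP2 and CASP4: ctccgtttagctgccattgt
No other pair shared a run over 17 bases. Neighbouring genes on the opposite strand covered 5.42% of the exon bases of CASP1, 2.76% of those of PER64 and 0.448% of those of CASP5, and without a stated strand setting such reads cannot be told apart. For ESB1 this share was far larger and is given with its values below.

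The table's values are TPM (transcript abundances that add up to the same total in each library). Reads in genes, recovered from the steps of these values, numbered 9143232 to 14717788 per library. The 6 members other than ESB1 had at least 3.77 TPM in every library and between 23 and 490 reads, so the filter on low values did not select among them by group. ESB1 reached 1 TPM in 1 library and was not tested. The targeted genes followed the labels. HTR4 and HTR8, which code for H3.3, averaged 54.2 ± 3.75 and 17.4 ± 2.4 TPM in h3.3kd at 27 °C, against 338 ± 8.32 and 189.6 ± 6.53 TPM in Col at 27 °C. HTR5, the third, averaged 265 ± 6.28 TPM in h3.3kd and 447 ± 22.6 TPM in Col at 27 °C, and ELF7 averaged 13.1 ± 0.486 TPM in elf7-3 and 40.7 ± 0.475 TPM in Col at 27 °C (SD, n = 3 libraries each). Against Col, the log2 fold changes of HTR8, HTR4 and HTR5 in h3.3kd were -3.38, -2.62 and -0.75 at 27 °C. At 21 °C they were -4.12, -3.23 and -1.15. Their warmth responses were higher in h3.3kd than in Col by 0.74, 0.61 and 0.40 (limma adjusted p from 1.25e-05 to 0.00109). In elf7-3 at 27 °C, HTR4 was called lower than in Col (-0.54), and HTR5 and HTR8 higher (0.53 and 0.39). The part of these differences in the results below was not tested. The first library of h3.3kd at 27 °C stood apart, with 3.66% of its TPM in organelle genes, against 0.128% to 0.343% in the other 17, and with the fewest reads. Nothing in the labels states that the 3 libraries of a group came from separate cultures, so the p-values reflect variation among libraries that can be technical.

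**Figure D1:**
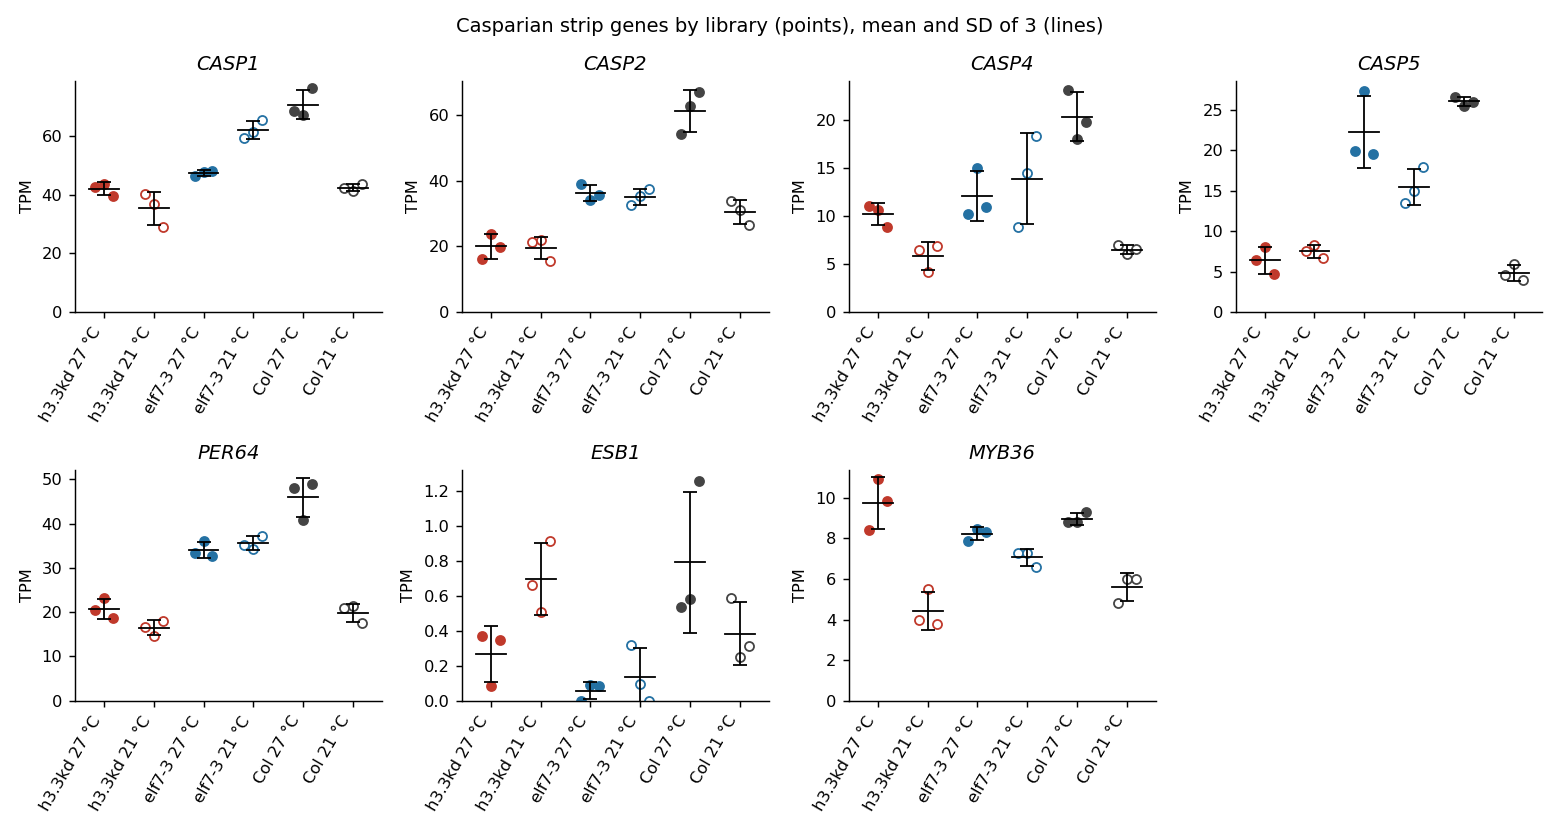
TPM of each of the 7 genes (vertical axis) in the 3 libraries of each group (points), with the mean and SD as lines, for h3.3kd (red), elf7-3 (blue) and Col (grey) at 27 °C (filled) and 21 °C (open). In Col all genes but ESB1 are higher in each library at 27 °C than in any at 21 °C, whereas CASP2 in h3.3kd and in elf7-3 is at about the level it has at 21 °C.

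Among the members CASP1 had the highest level in every group. The row of ESB1, whose reads cannot be told from those of an overlapping gene, is left out of the order. In Col at 27 °C the order was CASP1 with 70.8 ± 4.94 TPM, CASP2 with 61.3 ± 6.49, PER64 with 45.9 ± 4.42, CASP5 with 26.0 ± 0.553, CASP4 with 20.3 ± 2.55 and MYB36 with 8.97 ± 0.285 TPM (SD, n = 3). The libraries of neighbours in this order did not overlap. These levels are per base of the whole gene span, introns included, because the steps of the table fit that length. Recomputed per exon base, CASP5 averaged 23.5 ± 0.481 and CASP4 17.7 TPM in Col at 27 °C, and the order of the means was the same. In Col at 21 °C the order by gene span was CASP1 with 42.5 ± 1.18, CASP2 with 30.5 ± 3.75, PER64 with 19.9 ± 2.06, CASP4 with 6.49 ± 0.475, MYB36 with 5.6 ± 0.679 and CASP5 with 4.83 ± 1.03 TPM. CASP5 thus stood above CASP4 and MYB36 at 27 °C and below them at 21 °C, where the libraries of MYB36 and CASP5 overlapped. The lowest CASP4 library, at 6.005 TPM, was barely above the highest MYB36 library, at 6.002 TPM.

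Warmth raised all 6 tested genes in Col. Their log2 fold changes of TPM + 1, the scale of every fold change below, ran from 0.60 for MYB36 to 2.23 for CASP5, with a median of 1.08, against a median of 0.08 over all 20048 genes tested. Of all genes, 32.9% were called higher at 27 °C in Col and 22.1% lower (55% in either direction), at an adjusted p under 0.05 in limma with Benjamini-Hochberg adjustment over all genes. In every tested member the lowest library at 27 °C lay above the highest at 21 °C, which held for 37.4% of all genes. In whole seedlings, more endodermal cells and more RNA per cell cannot be told apart.

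CASP5 had 26.6, 25.5 and 26.0 TPM in Col at 27 °C, against 4.56, 5.97 and 3.96 TPM at 21 °C. The warm libraries were 5.39 times the cool ones on average, and the 21 °C values rest on 26 to 37 reads each. Its log2 fold change was 2.23 ± 0.16 (SE, limma adjusted p = 5.07e-09). CASP4 had 23.1, 18.02 and 19.8 TPM at 27 °C, against 6.95, 6.01 and 6.5 TPM at 21 °C, a log2 fold change of 1.5 ± 0.20 (limma adjusted p = 6.71e-06). These were the members with the lowest levels among the CASP genes at 21 °C, and no library of the groups overlapped.

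CASP1 and CASP2, the CASP genes with the highest levels, rose less. CASP2 had 54.2, 62.7 and 67.0 TPM in Col at 27 °C, against 33.9, 31.1 and 26.4 TPM at 21 °C, a log2 fold change of 0.99 ± 0.13 (limma adjusted p = 6.43e-06). CASP1 had 68.6, 67.3 and 76.4 TPM at 27 °C, against 42.3, 41.4 and 43.7 TPM at 21 °C, a log2 fold change of 0.72 ± 0.086 (limma adjusted p = 1.6e-06). For CASP1 the ratio of the means was 1.67 and for CASP2 2.01. For both, all warm libraries lay above all cool ones.

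The lignin peroxidase gene PER64 had 48.0, 40.9 and 49.0 TPM in Col at 27 °C, against 20.9, 21.3 and 17.5 TPM at 21 °C. Its log2 fold change was 1.17 ± 0.096 (limma adjusted p = 1.88e-08), and all warm libraries lay above all cool ones. MYB36, the transcription factor, had 8.81, 8.79 and 9.29 TPM in Col at 27 °C, against 4.82, 5.98 and 6.0 TPM at 21 °C. Its rise was the smallest of the 6, with a log2 fold change of 0.60 ± 0.12 (limma adjusted p = 0.000443).

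**Figure D2:**
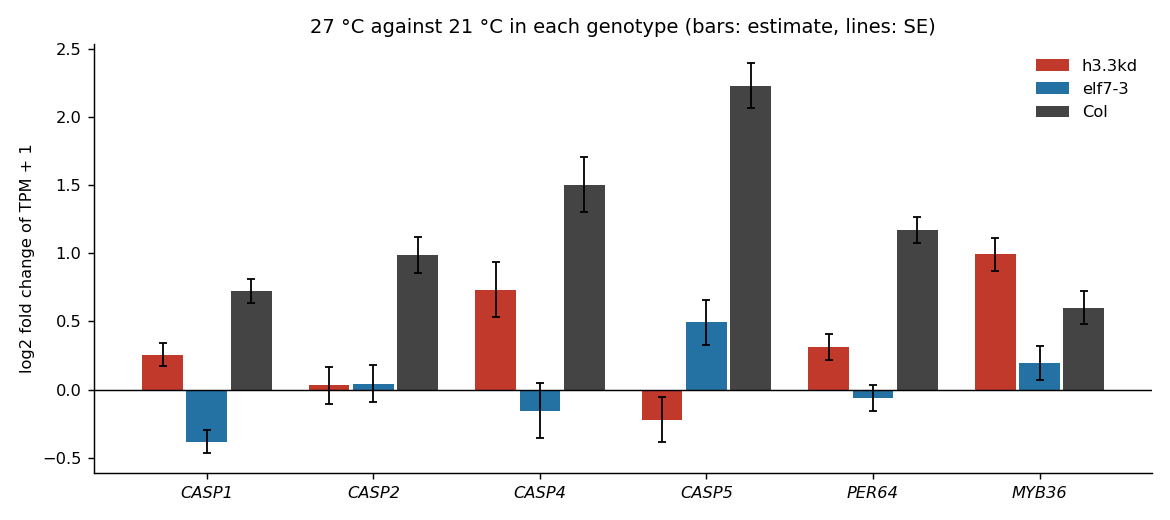
Log2 fold change of TPM + 1 at 27 °C against 21 °C (vertical axis) for the 6 tested genes in h3.3kd, elf7-3 and Col. Bars are limma estimates from 3 libraries a group and lines their SE. The Col bars run from 0.60 to 2.23, and MYB36 is the gene whose h3.3kd bar, at 0.99, is above its Col bar.

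In h3.3kd, 4 of the 6 genes rose with warmth, namely MYB36, CASP4, PER64 and CASP1, and none fell. Over all genes 26.1% were called higher at 27 °C in h3.3kd and 19.7% lower, 45.8% together. The median log2 fold change of the 6 was 0.28, against 0.04 over all genes. MYB36 stood first, with 8.42, 11.0 and 9.85 TPM at 27 °C, against 4.0, 5.49 and 3.77 TPM at 21 °C, a log2 fold change of 0.99 ± 0.12 (limma adjusted p = 3.6e-06). CASP4 had 11.0, 10.6 and 8.86 TPM at 27 °C, against 6.42, 4.12 and 6.85 TPM at 21 °C, a log2 fold change of 0.73 ± 0.20 (limma adjusted p = 0.00669). For both genes, every warm library was above every cool one, as in 29.8% of all genes.

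PER64 had 20.5, 23.2 and 18.6 TPM in h3.3kd at 27 °C, against 16.8, 14.7 and 18.03 TPM at 21 °C, a log2 fold change of 0.31 ± 0.096 (limma adjusted p = 0.0128). Without the second library of h3.3kd at 27 °C the adjusted p of PER64 was 0.0749, and without the second at 21 °C it was 0.0721. CASP1 had 42.8, 43.8 and 39.6 TPM at 27 °C, against 40.1, 36.9 and 29.0 TPM at 21 °C, and its groups overlapped. Its log2 fold change was 0.26 ± 0.086 (limma adjusted p = 0.0212). For CASP1 the adjusted p was 0.0553 without the first library at 27 °C, which is the one with many organelle reads, 0.0712 without the second at 27 °C and 0.154 without the third at 21 °C. The count of 4 became 2 without the second library at 27 °C and lay between 3 and 4 without any other. It was 3 in a fit of the compared groups alone, where CASP1 had an adjusted p of 0.105, and with voom, where PER64 had 0.0522.

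CASP2 and CASP5 did not pass the test in h3.3kd. CASP2 had 16.3, 23.9 and 19.9 TPM at 27 °C, against 21.2, 21.9 and 15.6 TPM at 21 °C, with a log2 fold change of 0.03 and a 95% interval of -0.25 to 0.31. CASP5 had 6.43, 8.07 and 4.71 TPM at 27 °C, against 7.55, 8.29 and 6.65 TPM at 21 °C, with a log2 fold change of -0.22 and an interval of -0.56 to 0.12. The groups of both genes overlapped, and the upper bound for CASP5 was far below its change of 2.23 in Col.

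In elf7-3, CASP5 rose and CASP1 fell with warmth, while the other 4 genes did not pass the test. Over all genes 29.8% were called higher at 27 °C in elf7-3 and 18.3% lower, 48.1% together. Of all called genes 62% were higher as deposited and 50.6% after median-of-ratios scaling. The median log2 fold change of the 6 members was -0.01 and that of all genes 0.07. CASP1 had 46.2, 47.6 and 48.2 TPM at 27 °C, against 59.5, 61.3 and 65.4 TPM at 21 °C, a log2 fold change of -0.38 ± 0.086 (limma adjusted p = 0.00133). CASP5 had 19.9, 27.4 and 19.6 TPM at 27 °C, against 13.5, 15.0 and 17.9 TPM at 21 °C, a log2 fold change of 0.49 ± 0.16 (limma adjusted p = 0.019). In both the groups did not overlap, where 33.9% of all genes lay wholly higher at 27 °C and 21.3% wholly lower. The call of CASP5 was lost, with adjusted p of 0.114, 0.0816 and 0.0501, without the second library at 27 °C, the first at 21 °C or the second at 21 °C, leaving a count of 1 in each case.

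CASP2 in elf7-3 had 39.1, 34.1 and 35.7 TPM at 27 °C, against 32.7, 35.3 and 37.5 TPM at 21 °C, and PER64 had 33.3, 36.2 and 32.6 TPM at 27 °C, against 35.1, 34.3 and 37.3 TPM at 21 °C. Their log2 fold changes were 0.04, with a 95% interval of -0.24 to 0.32, and -0.06, with an interval of -0.26 to 0.14. CASP4 had 10.2, 15.0 and 10.9 TPM at 27 °C, against 8.88, 14.4 and 18.3 TPM at 21 °C, and a log2 fold change of -0.15 with an interval of -0.58 to 0.27. These 3 genes overlapped between temperatures. MYB36, with 7.89, 8.47 and 8.33 TPM at 27 °C against 7.29, 7.3 and 6.6 TPM at 21 °C, did not overlap but had an adjusted p of 0.198 in limma.

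The differences between warmth responses were tested directly, as interactions. The response was lower in h3.3kd than in Col for 4 of the 6 genes, against 10% of all genes called lower and 8.37% called higher. They were CASP5 with a difference in log2 fold change of -2.45 ± 0.23, CASP2 with -0.96 ± 0.19, PER64 with -0.86 ± 0.14 and CASP1 with -0.46 ± 0.12 (limma adjusted p from 2.64e-06 to 0.0131). Of all genes called in this comparison 45.5% were higher, and 56.5% when the recovered reads were fitted with voom. CASP4, with a difference of -0.77 and a 95% interval of -1.37 to -0.16, had an adjusted p of 0.0713. MYB36 was the member with a difference above 0, of 0.39 with an interval of 0.03 to 0.76 (limma adjusted p = 0.124). Without the second library of h3.3kd at 21 °C both passed, CASP4 at an adjusted p of 0.0286 and MYB36 at 0.032.

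The response was lower in elf7-3 than in Col for 5 of the 6 genes, where 3.51% of all genes were called lower and 3.75% higher. The differences were -1.73 ± 0.23 for CASP5, -1.66 ± 0.29 for CASP4, -1.23 ± 0.14 for PER64, -1.10 ± 0.12 for CASP1 and -0.94 ± 0.19 for CASP2 (limma adjusted p from 4.61e-05 to 0.00517). MYB36 differed by -0.40 with a 95% interval of -0.77 to -0.04 (limma adjusted p = 0.171). The comparisons of h3.3kd and of elf7-3 with Col share the 6 Col libraries.

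Set against each other, the warmth responses of h3.3kd and elf7-3 differed for CASP1, by 0.64 ± 0.12 (limma adjusted p = 0.00214), and for MYB36, by 0.80 ± 0.17 (limma adjusted p = 0.00594), both higher in h3.3kd, where 4.8% of all genes were called higher and 7.01% lower. CASP4 with 0.89 ± 0.29, CASP5 with -0.71 ± 0.23 and PER64 with 0.38 ± 0.14 had adjusted p of 0.053, 0.0538 and 0.0833. Leaving out 1 library gave counts of 2 to 4, the highest without the third library of h3.3kd at 21 °C, when CASP4 and CASP5 also passed at 0.0417 and 0.0499. CASP4 further passed without the first library of elf7-3 at 21 °C (0.0062) or the second at 27 °C (0.0304). CASP5 passed without the second library of h3.3kd at 27 °C (0.0206), the third of elf7-3 at 21 °C (0.0419) or the third at 27 °C (0.0492), and PER64 without the third of h3.3kd at 27 °C (0.0456). The difference for CASP2, of -0.01 with a 95% interval of -0.41 to 0.38, did not pass.

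At 27 °C, 5 of the 6 genes were lower in h3.3kd than in Col, and none was higher, where 31.6% of all genes were called lower and 20.2% higher, 51.8% together. Of all called genes 39% were higher as deposited and 52.3% after median-of-ratios scaling or 49.7% with voom. CASP5 had the largest difference, with a mean of 6.4 ± 1.68 TPM in h3.3kd and 26.0 ± 0.553 TPM in Col (log2 fold change -1.89 ± 0.16, limma adjusted p = 4.25e-08). CASP2 averaged 20.01 ± 3.8 TPM in h3.3kd and 61.3 ± 6.49 TPM in Col (log2 fold change -1.58 ± 0.13). The other calls were -1.11 for PER64, -0.93 for CASP4 and -0.74 for CASP1, with limma adjusted p from 3.09e-08 to 0.000943 over CASP2 and these genes. In all 5, no h3.3kd library reached the lowest Col library, which held for 34.6% of all genes. MYB36 averaged 9.74 ± 1.27 TPM in h3.3kd and 8.97 ± 0.285 TPM in Col, overlapped, and had a log2 fold change of 0.10 with a 95% interval of -0.16 to 0.36.

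At 21 °C, 3 of the 6 genes were lower and 1 higher in h3.3kd than in Col. CASP2 was lower, with 21.2, 21.9 and 15.6 TPM in h3.3kd against 33.9, 31.1 and 26.4 TPM in Col (log2 fold change -0.62 ± 0.13, limma adjusted p = 0.00155). CASP1, at -0.27, and PER64, at -0.26, were also called lower, and CASP5 higher, at 0.55 ± 0.16 (limma adjusted p of 0.0216, 0.0481 and 0.0145). Over all genes 20.8% were called lower and 12.7% higher in h3.3kd (33.5% together), and 38% of the called genes were higher as deposited but 50.5% after median-of-ratios scaling. CASP2 was the call that held in every alternative setting tried and without any single library. The count of 4 was 2 after median-of-ratios scaling, in a fit of the compared groups alone, with voom and without the third Col library, and 3 without any of the other 5 libraries. CASP1 lost its call without the first Col library (0.0507), the third (0.0686) or the third h3.3kd library (0.139), and CASP5 without the third Col library (0.0731) or the second h3.3kd library (0.056). PER64 lost its call in 6 of the 9 other settings, with adjusted p from 0.0505 per exon length to 0.159 with voom, and also without the first (0.149) or second Col library (0.168) and without the first (0.0821) or second h3.3kd library (0.198). MYB36, with -0.29 and an adjusted p of 0.0748, passed without the first Col library (0.0413) or the second h3.3kd library (0.0113).

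**Figure D3:**
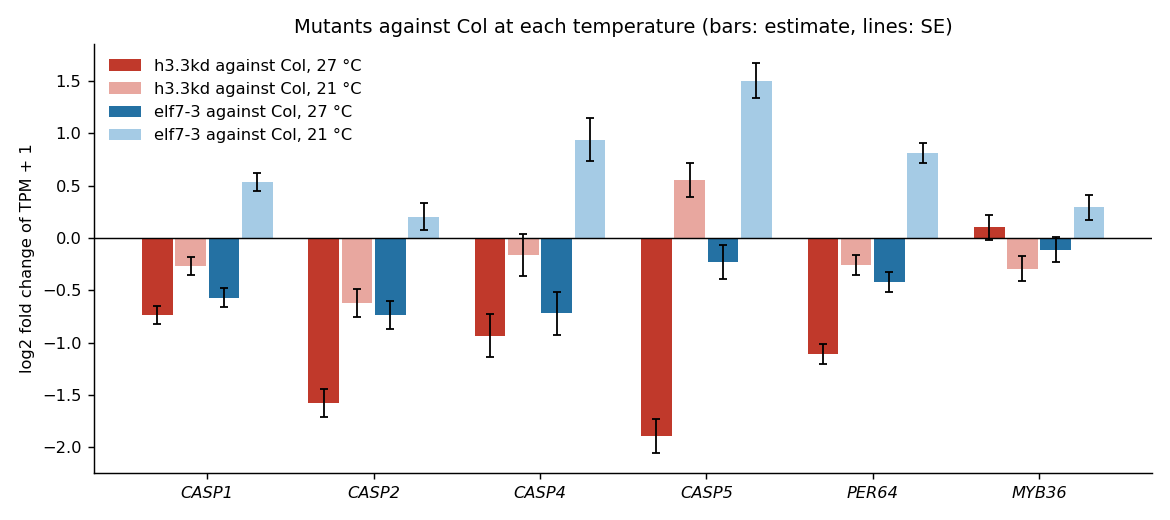
Log2 fold change of TPM + 1 of h3.3kd and of elf7-3 against Col (vertical axis) at 27 °C (dark bars) and 21 °C (light bars) for the 6 tested genes, with limma SE as lines. For elf7-3 the bars are above 0 at 21 °C and below 0 at 27 °C, with CASP5 at 1.5 and -0.23. For h3.3kd at 27 °C they reach -1.89 for CASP5, while MYB36 is at 0.10.

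In elf7-3, CASP1, CASP4 and PER64 were called above Col at 21 °C and below it at 27 °C. CASP5 was called at 21 °C only and CASP2 at 27 °C only. At 21 °C, 4 of the 6 genes were higher in elf7-3 than in Col and none lower, where 13.3% of all genes were called higher and 15.4% lower, 28.7% together. CASP5 averaged 15.4 ± 2.22 TPM in elf7-3 and 4.83 ± 1.03 TPM in Col (log2 fold change 1.5 ± 0.16, limma adjusted p = 3.95e-06). PER64 averaged 35.5 ± 1.55 TPM in elf7-3 and 19.9 ± 2.06 TPM in Col (0.81 ± 0.096, limma adjusted p = 9.41e-06). CASP4 and CASP1 were higher by 0.94 and 0.54 on the log2 scale, and none of these 4 overlapped between genotypes, where 20.7% of all genes had elf7-3 wholly above Col and 23.7% wholly below. CASP2, at 0.21 with a 95% interval of -0.07 to 0.48, and MYB36, at 0.29 with an interval of 0.04 to 0.55, did not pass. The MYB36 libraries did not overlap, with 6.6 to 7.3 TPM in elf7-3 and 4.82 to 6.0 TPM in Col.

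At 27 °C, 4 genes were lower in elf7-3 than in Col and none higher, where 18.5% of all genes were called lower and 16.4% higher. CASP2 averaged 36.3 ± 2.57 TPM in elf7-3 and 61.3 ± 6.49 TPM in Col (log2 fold change -0.74 ± 0.13, limma adjusted p = 0.000355). CASP4, CASP1 and PER64 were lower, with log2 fold changes of -0.72, -0.57 and -0.42, and all 4 had elf7-3 wholly below Col, as did 24.3% of all genes. CASP5, at -0.23 with a 95% interval of -0.58 to 0.11, overlapped between the genotypes, and MYB36, at -0.11 with an interval of -0.37 to 0.15, did not pass. The MYB36 libraries in elf7-3, at 7.89 to 8.47 TPM, nevertheless lay wholly below those in Col, at 8.79 to 9.29 TPM.

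All 6 genes were lower in h3.3kd than in elf7-3 at 21 °C, with log2 fold changes from -0.58 for MYB36 to -1.10 for CASP4 (limma adjusted p from 1.15e-07 to 0.000811), where 25.9% of all genes were called lower and 19.3% higher, 45.2% together. The groups of all 6 did not overlap, as in 30.1% of all genes with h3.3kd below elf7-3. At 27 °C the count was 3, CASP5 with -1.66 ± 0.16, CASP2 with -0.84 ± 0.13 and PER64 with -0.69 ± 0.096, where 31.6% of all genes were called lower and 21.6% higher, 53.2% together. CASP1, at -0.17 with a 95% interval of -0.35 to 0.01, CASP4, at -0.21 with an interval of -0.64 to 0.21, and MYB36, at 0.21 with an interval of -0.04 to 0.47, did not pass there.

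Summed over CASP1, CASP2, CASP4 and CASP5, the libraries held 73.1 to 86.3 TPM in h3.3kd at 27 °C and 58.1 to 75.3 TPM at 21 °C. In elf7-3 the sum was 114 to 124 TPM at 27 °C and 114.5 to 139 TPM at 21 °C, and in Col it was 173 to 189 TPM at 27 °C and 80.6 to 87.6 TPM at 21 °C. The sums at the 2 temperatures overlapped in h3.3kd and in elf7-3 and stood far apart in Col. The make-up of the sum moved as well, by shares of gene-span TPM. CASP1 made up 39.65% ± 0.824 of it in Col at 27 °C and 50.5% ± 3.27 at 21 °C, and CASP5 made up 14.6% ± 0.847 at 27 °C and 5.72% ± 1.17 at 21 °C. In elf7-3 CASP5 took 18.8% ± 2.83 at 27 °C and 12.2% ± 0.583 at 21 °C. Its share for h3.3kd was 8.07% ± 1.48 at 27 °C and 11.04% ± 0.885 at 21 °C, and all warm libraries were below all cool ones (SD, n = 3 throughout).

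**Figure D4:**
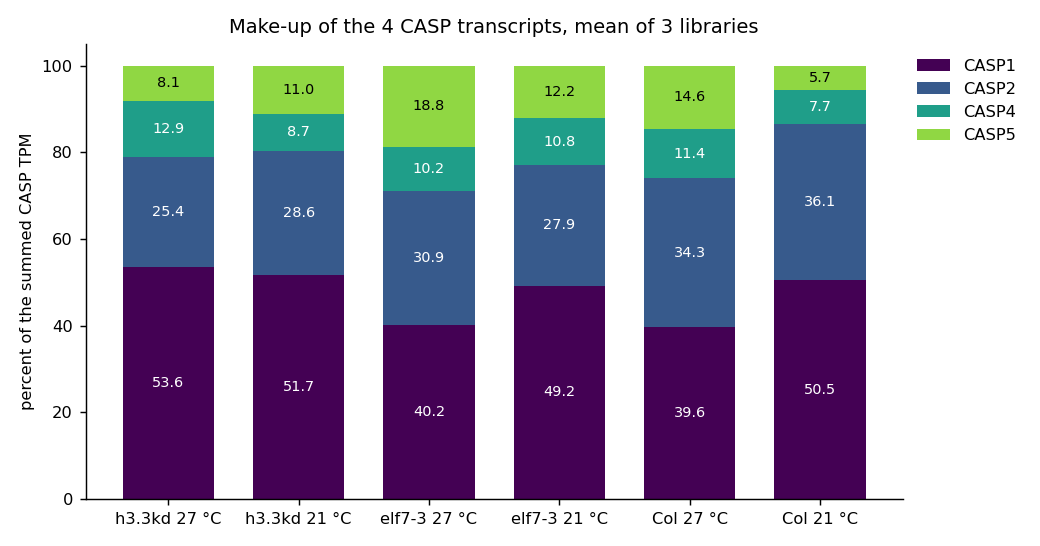
Share of the summed CASP1, CASP2, CASP4 and CASP5 TPM held by each gene (vertical axis, percent, mean of 3 libraries) in the 6 groups. The CASP5 share for h3.3kd is 8.07% at 27 °C and 11.04% at 21 °C, while for Col it is 14.6% at 27 °C and 5.72% at 21 °C.

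This sum was also set against MYB36, a regulator of CASP genes. It was 8.13 ± 0.866 times the MYB36 level in h3.3kd at 27 °C and 15.7 ± 2.93 times at 21 °C. In elf7-3 it was 14.3 ± 0.531 times at 27 °C and 18.01 ± 2.76 times at 21 °C, and in Col 19.9 ± 0.406 times at 27 °C and 15.3 ± 2.57 times at 21 °C. The highest h3.3kd library at 27 °C, at 9.09, lay below the lowest of any other group, at 12.96. Across the 18 libraries Pearson's r was 0.7 to 0.903 in the 10 pairs of tested members without MYB36 and 0.409 to 0.63 in the 5 pairs with it. After the group means were taken off, these ranges were -0.179 to 0.559 and -0.481 to 0.381. These r describe how the groups differ, in libraries that share a scaling, and were not tested.

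ESB1 could not be described from its row. It lies at chr2:12300265-12302358 on the minus strand, and the annotated gene AT2G28671, at chr2:12300203-12302036 on the plus strand, covers 84.3% of its exon bases. AT2G28671 had 0 reads in every library. The ESB1 row held 8 reads in h3.3kd at 27 °C, with an exact Poisson 95% interval of 3.45 to 15.8, and 25 at 21 °C, with 16.2 to 36.9. It held 2 in elf7-3 at 27 °C (0.242 to 7.22) and 5 at 21 °C (1.62 to 11.7), and 27 in Col at 27 °C (17.8 to 39.3) and 14 at 21 °C (7.65 to 23.5), each over 3 libraries. Such intervals cover counting error only. Reads of overlapping genes cannot be told apart without strand, so these counts are not read as the level of ESB1.

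Other genes of the Casparian strip pathway, from a list of 23 of which 22 were tested, were mostly higher with warmth in Col, where 17 rose and none fell. Their median log2 fold change was 0.63, and 32.9% of all genes were called higher in Col and 22.1% lower. In h3.3kd 12 rose and 2 fell with a median of 0.29 (all genes 26.1% and 19.7%). In elf7-3 4 rose and 5 fell with a median of 0.13 (all genes 29.8% and 18.3%). DIR25, a dirigent gene, was the one not tested and was listed at 0 in every library. The list was put together with results of these data known, so its counts are a description.

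The named genes of that list with the largest warmth responses in Col were UCC1, LAC3, DIR24 and DIR9. UCC1, a copper protein of the uclacyanin family found at the strip, averaged 37.3 ± 2.55 TPM in h3.3kd at 27 °C against 16.5 ± 1.12 at 21 °C, 29.1 ± 3.99 against 23.4 ± 2.62 in elf7-3, and 68.4 ± 6.91 against 18.6 ± 2.2 in Col (SD, n = 3). Its log2 fold change was 1.13 in h3.3kd, 0.30 in elf7-3 and 1.82 ± 0.11 in Col (limma adjusted p of 2.07e-07, 0.0281 and 4.51e-10). LAC3, a laccase of the strip, rose by 0.74 ± 0.12 in h3.3kd and by 1.78 ± 0.12 in Col. The dirigent genes DIR24 and DIR9 rose by 1.03 ± 0.11 and 0.77 ± 0.13 in h3.3kd and by 1.63 ± 0.11 and 1.57 ± 0.13 in Col. In elf7-3 LAC3, DIR24 and DIR9 had log2 fold changes of 0.29, 0.11 and 0.30 and did not pass (limma adjusted p of 0.0511, 0.434 and 0.0742).

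Of the signalling genes of the list, SGN3, the receptor kinase that surveys the strip, averaged 33.1 ± 2.44 TPM in h3.3kd at 27 °C against 14.8 ± 1.42 at 21 °C, 31.2 ± 1.04 against 21.3 ± 0.521 in elf7-3, and 30.8 ± 3.25 against 12.4 ± 0.714 in Col. It rose in all 3 genotypes, by 1.11, 0.53 and 1.24 on the log2 scale, with SE of 0.082 each. The difference of h3.3kd from Col in this response was -0.13 ± 0.12 (limma adjusted p = 0.492), whereas that of elf7-3 was -0.71 ± 0.12 (limma adjusted p = 0.00142). SGN1, a cytoplasmic kinase that acts with SGN3, rose by 1.08, 0.49 and 0.91 in h3.3kd, elf7-3 and Col, and RBOHD, an NADPH oxidase, by 0.83, 0.70 and 0.79. CIF2, a peptide of the stele that SGN3 perceives, had a log2 fold change of 0.06 in h3.3kd (limma adjusted p = 0.551), fell by 0.19 in elf7-3 (limma adjusted p = 0.0463) and rose by 0.25 ± 0.074 in Col (limma adjusted p = 0.00829). At 21 °C the log2 fold change of CIF2 was -0.41 ± 0.074 in h3.3kd against Col and 0.86 ± 0.074 in elf7-3 against Col, both called. CIF1, also on the list, fell with warmth in elf7-3 by 0.80 ± 0.28 (limma adjusted p = 0.0268). Its log2 fold change in h3.3kd against elf7-3 at 21 °C was -1.43 ± 0.28 (limma adjusted p = 0.000496). The CIF1 values rest on 6 to 40 reads a library.

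Between genotypes, the 22 genes gave 12 lower and none higher in h3.3kd against Col at 27 °C (all genes 31.6% lower and 20.2% higher). At 21 °C 2 were lower and 2 higher in h3.3kd (all genes 20.8% and 12.7%). In elf7-3 against Col, 8 were lower and 5 higher at 27 °C (all genes 18.5% and 16.4%). At 21 °C 16 were higher and none lower in elf7-3 (all genes 13.3% and 15.4%). The interaction was lower in 8 and higher in none for h3.3kd against Col (all genes 10% and 8.37%). For elf7-3 against Col it was lower in 11 and higher in none (all genes 3.51% and 3.75%). These comparisons share the Col libraries. LAC3 had an interaction of -1.05 ± 0.16 in h3.3kd and -1.495 ± 0.16 in elf7-3 (limma adjusted p of 0.000335 and 4.61e-05). The peroxidase gene PER9 had -1.09 ± 0.24 and -1.30 ± 0.24 (limma adjusted p of 0.00383 and 0.00272), and DIR24 had -0.60 ± 0.15 and -1.52 ± 0.15 (limma adjusted p of 0.0119 and 2.47e-05). SHR and SCR, transcription factors that specify the endodermis, of which SHR was chosen after its values were seen, differed in warmth response by 0.03 and -0.22 between h3.3kd and Col and by -0.03 and -0.14 between elf7-3 and Col, none of them called (limma adjusted p from 0.106 to 0.921). SCR averaged 47.4 ± 2.27 TPM in h3.3kd, 42.9 ± 1.43 in elf7-3 and 43.2 ± 1.47 in Col at 27 °C. At 21 °C SCR was called higher in h3.3kd than in Col (log2 fold change 0.35 ± 0.065, limma adjusted p = 0.000474).

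Suberin synthesis, a later step of endodermal differentiation in which a lipid polymer is laid down, was covered by 11 genes, all tested. In Col 3 rose with warmth and 1 fell (all genes 32.9% and 22.1%). The median log2 fold change was 0.08, and that of all genes was also 0.08. FAR1, a fatty acyl reductase, had the largest change of the list, with 112 to 143 TPM in Col at 27 °C against 3.33 to 3.64 TPM at 21 °C (log2 fold change 4.8 ± 0.27, limma adjusted p = 2.17e-10). In h3.3kd it had 13.1 to 21.2 TPM at 27 °C against 4.54 to 5.52 TPM at 21 °C, and in elf7-3 13.7 to 20.5 TPM at 27 °C against 4.98 to 14.9 TPM at 21 °C. With warmth 2 of the 11 rose and 1 fell in h3.3kd (all genes 26.1% and 19.7%), and 1 rose and 2 fell in elf7-3 (all genes 29.8% and 18.3%). GPAT5, an acyltransferase of suberin synthesis, fell in elf7-3 by 1.46 on the log2 scale. Against Col, 6 were higher and 2 lower in elf7-3 at 27 °C (all genes 16.4% and 18.5%). At 21 °C 6 were higher and none lower in elf7-3 (all genes 13.3% and 15.4%).

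Markers of other root tissues were also compared, and their part in the results for the Casparian strip genes was not tested. Of 28 such markers, for root hairs and epidermis, cortex, stele, cap, meristem and nutrient uptake, 26 were tested. With warmth 2 rose and 11 fell in h3.3kd with a median log2 fold change of -0.26, 5 rose and 6 fell in elf7-3 with a median of -0.04, and 6 rose and 5 fell in Col with a median of 0.11, where 45.8%, 48.1% and 55% of all genes were called in h3.3kd, elf7-3 and Col. At 27 °C 3 were higher and 15 lower in h3.3kd than in Col (all genes 20.2% and 31.6%), and 8 higher and 3 lower in elf7-3 than in Col (all genes 16.4% and 18.5%). At 21 °C 3 were higher and 6 lower in h3.3kd than in Col (all genes 12.7% and 20.8%), and 12 higher and 2 lower in elf7-3 than in Col (all genes 13.3% and 15.4%). For the interactions with Col, 1 was higher and 7 lower in h3.3kd, with a median of -0.45, and 2 higher and 5 lower in elf7-3, with a median of -0.32 (all genes 8.37% higher and 10% lower in h3.3kd, and 3.75% and 3.51% in elf7-3).

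The summed level of these 28 markers was 2584 to 3183 TPM in h3.3kd at 27 °C and 2553 to 2867 TPM at 21 °C, 3074 to 3639 TPM in elf7-3 at 27 °C and 2639 to 2881 TPM at 21 °C, and 3192 to 3652 TPM in Col at 27 °C and 2716 to 3030 TPM at 21 °C. Most of it came from PYK10, a beta-glucosidase of ER bodies, which averaged 1944 TPM in h3.3kd, 2308 TPM in elf7-3 and 2454 TPM in Col at 27 °C, so the sum mainly follows that gene. WOX5, which marks the quiescent centre, was at 0 in 2 libraries and the nitrate transporter gene NRT2.1 in 4, and no other marker was at 0 in any. The 4 root cap markers summed to 2.49 to 3.55 TPM in h3.3kd at 27 °C, against 4.74 to 7.75 TPM at 21 °C. Of these, RCPG was called lower with warmth in h3.3kd (log2 fold change -1.33 ± 0.21, limma adjusted p = 4.71e-05). The other 3 were not called, where 26.1% of all genes were called higher and 19.7% lower. The 5 stele markers summed to 113 to 138 TPM in h3.3kd, 334 to 355 TPM in elf7-3 and 248 to 272 TPM in Col at 27 °C. Against Col there, 4 of them were called lower and none higher in h3.3kd (all genes 31.6% and 20.2%). In elf7-3, 1 of them, BOR1, was called lower and 3 higher (all genes 18.5% and 16.4%). The 2 cortex markers summed to 588 to 667 TPM in h3.3kd, 394 to 421.5 TPM in elf7-3 and 390 to 413 TPM in Col at 27 °C. Both cortex markers were called higher in h3.3kd than in Col there, as were 20.2% of all genes. At 21 °C PEP was called higher in h3.3kd than in Col (log2 fold change 0.85) and CO2 lower (-0.49), where 12.7% of all genes were called higher and 20.8% lower. The sums of the root hair, meristem and nutrient uptake lists lay lower in h3.3kd than in Col at 27 °C. By gene, 4 of 7 tested root hair markers and 1 of 3 meristem markers were called lower there, and none higher. Of 5 tested nutrient uptake markers, 3 were called lower and 1, PHT1;1, higher (all genes 31.6% lower and 20.2% higher). The 4 leaf photosynthesis markers had median log2 fold changes with warmth of 0.32, 0.21 and 0.44 in h3.3kd, elf7-3 and Col. In elf7-3 against Col none of the 4 was higher and 3 were lower at both temperatures, with medians of -0.50 at 27 °C and -0.40 at 21 °C, where the Casparian strip genes called at 21 °C were higher. In h3.3kd against Col 2 were higher and 1 lower at 27 °C, with a median of 0.21, and 1 was higher and none lower at 21 °C, with a median of 0.17. The part of the leaf share of the RNA in these results was not tested.

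**Figure D5:**
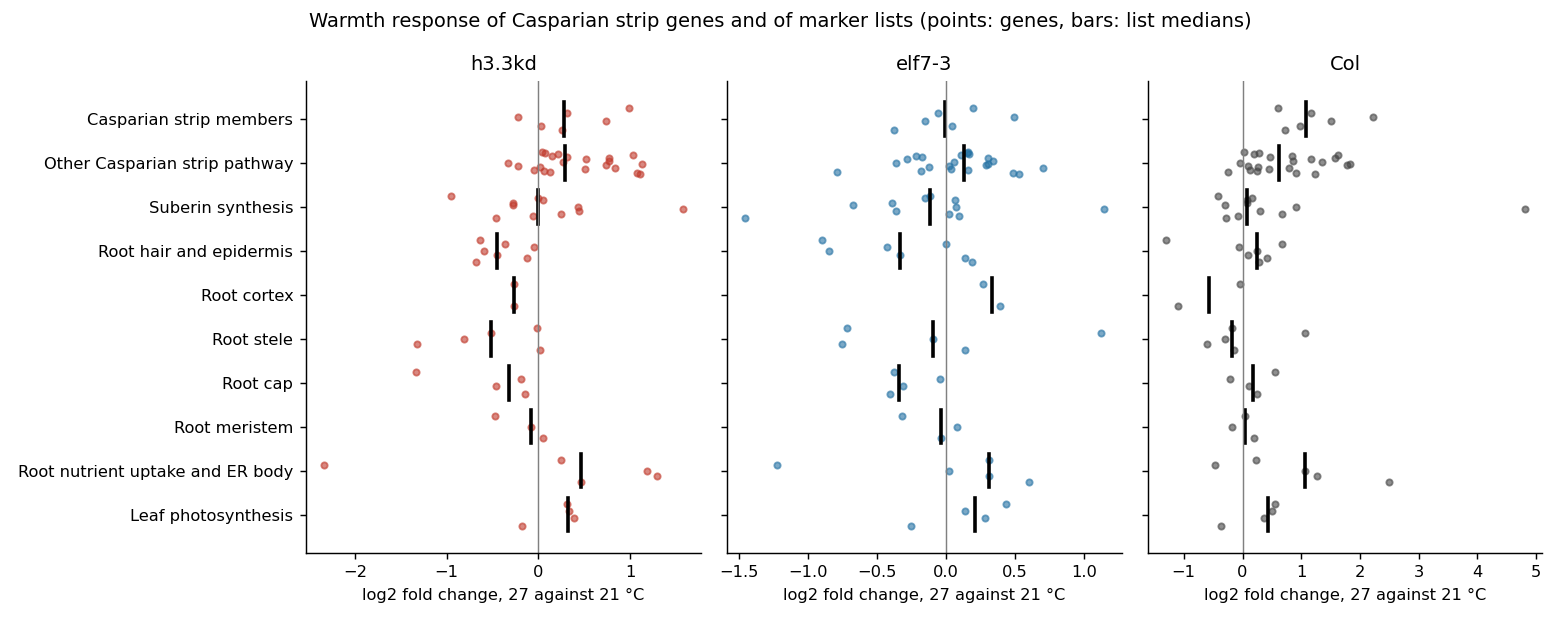
Log2 fold change of TPM + 1 at 27 °C against 21 °C (horizontal axis, with its own range in each panel) of each tested gene (points) in the Casparian strip genes, the other pathway genes and the marker lists, for h3.3kd, elf7-3 and Col. Bars are list medians: 0.28, -0.01 and 1.08 for the Casparian strip genes and 0.29, 0.13 and 0.63 for the other pathway genes.

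The wider CASP-like family, taken from the product names of the annotation after the values had been seen, held 35 genes in the table, of which 31 were tested. With warmth in Col 3 rose and 7 fell, with a median log2 fold change of 0.02, where 32.9% of all genes rose and 22.1% fell. In h3.3kd 3 rose and 10 fell (all genes 26.1% and 19.7%), and in elf7-3 3 rose and 6 fell (all genes 29.8% and 18.3%). At 27 °C 5 were higher and 7 lower in h3.3kd than in Col (all genes 20.2% and 31.6%). In elf7-3 against Col 8 were higher and 2 lower at 27 °C (all genes 16.4% and 18.5%), and 8 were higher and 1 lower at 21 °C (all genes 13.3% and 15.4%).

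The genes whose profile over the 18 libraries was most like the mean profile of the 6 tested members, among 19157 genes averaging 1 TPM or more, were ranked by Pearson's r on log2(TPM + 1). They were AT1G51790, a leucine-rich repeat kinase gene (r = 0.956), AT3G18200 or UMAMIT4, a transporter gene (0.953), AT5G01210, an HXXXD acyltransferase gene (0.932), AT5G27000 or ATK4, a kinesin gene (0.927), AT2G22620, a rhamnogalacturonate lyase gene (0.927), and AT4G33740 (0.925). UMAMIT4 averaged 13.6 TPM in h3.3kd at 27 °C against 5.37 at 21 °C, 25.6 against 22.7 in elf7-3 and 31.1 against 7.79 in Col. AT5G01210 averaged 84.2 TPM in h3.3kd at 27 °C against 52.8 at 21 °C, 183 against 121 in elf7-3 and 269 against 99.0 in Col. These were chosen by their likeness to the members and share libraries and scaling with them.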

How the data were processed

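TPM per gene for 27655 Araport11 loci in 18 seedling libraries were used as deposited by the authors. Per the submitters' processing notes fastp 0.20.1, HISAT2 2.1.10, HTSeq 0.11.2, DESeq2 1.26.0 and the TAIR10 build were used, with no roles stated, and the strand setting is not given in the sources used here. The deposited TPM were found to be per base of the gene span, introns included (100.0% of 21334 genes within 0.1%), so introns lower a gene's level and, through the pseudocount, slightly shift its fold change. Whole reads, within 0.05 reads, were recovered for 100% of values of 22541 genes. The limma package (version 3.58.1, run in R 4.3.3) was fitted to log2(TPM + 1) of all 18 libraries with a mean for every group and a trended prior, for 20048 genes with at least 1 TPM in 3 or more libraries. Two-sided p-values were Benjamini-Hochberg adjusted over these genes and called under 0.05. On this scale the change of low genes is understated. The script was tested on simulated data. Alternatives were a pseudocount of 0.1, no filter or one at 5 TPM, median-of-ratios scaling, removal of organelle genes, a replicate block, only the groups compared, voom on recovered reads, TPM per exon length and leaving out each library. Named genes were the members, up to 4 genes per other list and comparison by size of change among those called, and the 6 genes most like the members. One item is not reported here. The members and lists were chosen with earlier results of these data known. Promoters and gene models came from RefSeq on TAIR10.1.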

Additional observations from a re-analysis of the deposited data

Results flagged for a closer look

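A difference between genotypes in the response to warmth, tested as an interaction in limma with Benjamini-Hochberg adjustment over all genes, set apart 11 values, each in log2 units from 3 libraries a group. For h3.3kd minus Col these were -2.45 for CASP5, -0.96 for CASP2, -0.86 for PER64 and -0.46 for CASP1. For elf7-3 minus Col they were -1.73 for CASP5, -1.66 for CASP4, -1.23 for PER64, -1.10 for CASP1 and -0.94 for CASP2. For h3.3kd minus elf7-3 they were 0.80 for MYB36 and 0.64 for CASP1. CASP5, the gene with the largest response in Col, had the most negative value in both comparisons with Col, which use the same Col libraries.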

How the results depend on the processing

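Of 12 comparisons, 8 gave the same count of members called in all 9 settings other than leaving out a library. For h3.3kd against Col at 21 °C the count was 4 as reported and 2 with median-of-ratios scaling, with only the groups compared and with voom on recovered reads. For the warmth response of h3.3kd minus elf7-3 it was 2 as reported, 4 with the filter at 5 TPM and 2 or 3 otherwise. For warmth in h3.3kd it was 4 as reported and 3 with only the groups compared and with voom, and for the response of h3.3kd minus Col 4 as reported and 5 with only the groups compared. Leaving out each library gave counts of 2 to 4 for warmth in h3.3kd, 1 to 2 in elf7-3 and 6 to 6 in Col, 2 to 3 and 5 to 5 for h3.3kd against Col at 21 and 27 °C, 4 to 4 for elf7-3 against Col at either temperature, 6 to 6 and 3 to 3 for h3.3kd against elf7-3 at 21 and 27 °C, and 4 to 6, 5 to 5 and 2 to 4 for the responses of h3.3kd minus Col, elf7-3 minus Col and h3.3kd minus elf7-3. Sign changes occurred in 18 values, none called in either setting, and their cause was not tested. CASP2 with warmth became -0.0103 in h3.3kd and -0.0284 in elf7-3 with median-of-ratios scaling, and -0.00569 in elf7-3 with voom. The response of CASP2 in h3.3kd minus elf7-3 became 0.0181 with median-of-ratios scaling, 0.00368 with organelle genes removed, 0.0727 with voom and 0.000402 with TPM per exon length, a setting chosen after seeing the data. Without single libraries, CASP2 with warmth ran from -0.118 to 0.164 in h3.3kd and from -0.00991 to 0.0910 in elf7-3, CASP4 with warmth in elf7-3 from -0.423 to 0.0601, and CASP4 in h3.3kd against Col at 21 °C from -0.278 to 0.0296. The response of h3.3kd minus elf7-3 ran from -0.161 to 0.120 for CASP2. Same-numbered libraries had correlations of deviations from group means of -0.154 to 0.168 over 27 pairings. With 3 libraries a group, these values cannot tell whether libraries of the same number were handled together. With a replicate block PER64 in h3.3kd against Col at 21 °C kept its log2 fold change of -0.26 at an adjusted p of 0.065, and the response of CASP5 in h3.3kd minus elf7-3, -0.71, had an adjusted p of 0.031. The fewest reads of a tested member in a library were 23, for CASP4 in h3.3kd at 21 °C, and ESB1 had 2 to 27 reads a group.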
